A study of Mus musculus with 6 samples.

Results

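The laminin chains, the integrin subunits and the proteins that join them to the basement membrane and to the cytoskeleton were followed in oesophageal squamous cell carcinomas of mice. The members were the gene symbols of the laminin alpha, beta and gamma chains and of the integrin alpha and beta subunits, with Nid1, Nid2, Hspg2, Dst, Plec and Cd151 added by name. They came to 44 of the 41253 symbols in the files, and all 44 were among the 17663 genes tested. They held 11 laminin chains, 18 integrin alpha subunits and 9 integrin beta subunits.

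The tumours had been raised in C57BL/6 mice with the carcinogen 4-nitroquinoline 1-oxide (4NQO), given from week 6 for 16 weeks and followed by 12 weeks without it, so both groups carried the same exposure. Of the 6 libraries, 3 were labelled Ptpro-KO (genotype Ptpro-/-, Ptpro being a receptor-type tyrosine phosphatase gene) and 3 were labelled WT (genotype Ptpro+/+). Per the design text each library was 1 mouse of 34 weeks, although an age tag reads week 6. RNA came from bulk tumour, in which fewer cells of a type and less RNA per cell cannot be told apart.

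Laminins are trimers of an alpha, a beta and a gamma chain that polymerise into the sheet of the basement membrane, where nidogens and perlecan tie them to the collagen network. Epithelial cells hold on to laminin-332 through integrin alpha6 beta4 in the hemidesmosome, whose plaque proteins plectin and dystonin reach the keratin filaments. Other integrins read the stroma (alpha5 beta1 binds fibronectin), and the beta2 integrins are the adhesion receptors of leukocytes.

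The targeted gene ran against the labels. Ptpro had 1094, 1824 and 1921 reads in libraries with the Ptpro-KO label, against 174, 9 and 67 reads in WT-labelled ones (log2 fold change 3.97, SE 0.85, adjusted p = 0.0617 in edgeR's quasi-likelihood test). Every direction given here is therefore between libraries labelled Ptpro-KO and libraries labelled WT, and "under Ptpro-KO" and "under WT" refer to those labels. Libraries held 25745240 to 39827467 reads, of which the members took 0.903% to 1.264%. Summed basal squamous markers (Krt5, Krt14, Krt15, Trp63) were at 7429.9 to 10055.6 CPM (counts scaled to a common library size by TMM) in the Ptpro-KO-labelled libraries and 17732.3 to 24268.3 CPM in those labelled WT. Simple epithelium keratins (Krt8, Krt18, Krt19) were at 544.4 to 1239.3 CPM in the Ptpro-KO-labelled libraries and 2.883 to 6.002 CPM in those labelled WT. Single libraries stood apart: stomach markers summed to 11953.6 CPM in Ptpro-KO replicate 3 against at most 16.41 CPM elsewhere, and thyroid markers to 780 CPM in Ptpro-KO replicate 2 against at most 2.602 CPM elsewhere. The 5 skeletal muscle markers summed to 63.12 CPM in Ptpro-KO replicate 3 and 52.72 CPM in WT replicate 2, against 3340.6 to 7853.0 CPM in the other 4 libraries.

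Upstream sequence of 4 members is shown because Itgam, Itgax and Itgb2l are the leukocyte members with the highest fold changes that have an entry in the RefSeq promoter table, and Lamb1 is the stromal member with the smallest adjusted p that has one. Each run is the 250 bases before the gene's start in RefSeq (GRCm38.p6), 5′ to 3′ on the gene's strand. The positions are chr7:128062390-128062639 (plus strand) for Itgam, chr7:128129300-128129549 (plus) for Itgax, chr16:96443615-96443864 (minus) for Itgb2l and chr12:31265043-31265292 (plus) for Lamb1. Capitals mark the PU.1 core GAGGAA, the SP1 box GGGCGG and the AP-1 letters TGANTCA, searched on both strands so that a match on the other strand reads TTCCTC or CCGCCC.
Itgam: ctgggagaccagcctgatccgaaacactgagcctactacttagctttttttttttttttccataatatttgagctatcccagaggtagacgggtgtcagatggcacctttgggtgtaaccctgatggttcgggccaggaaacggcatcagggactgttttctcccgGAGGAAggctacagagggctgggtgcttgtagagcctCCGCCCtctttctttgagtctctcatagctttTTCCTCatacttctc
Itgax: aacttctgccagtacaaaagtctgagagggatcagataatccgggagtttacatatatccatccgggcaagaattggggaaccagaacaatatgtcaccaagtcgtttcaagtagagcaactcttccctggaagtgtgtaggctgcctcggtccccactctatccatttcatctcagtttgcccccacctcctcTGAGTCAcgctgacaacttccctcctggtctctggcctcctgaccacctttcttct
Itgb2l: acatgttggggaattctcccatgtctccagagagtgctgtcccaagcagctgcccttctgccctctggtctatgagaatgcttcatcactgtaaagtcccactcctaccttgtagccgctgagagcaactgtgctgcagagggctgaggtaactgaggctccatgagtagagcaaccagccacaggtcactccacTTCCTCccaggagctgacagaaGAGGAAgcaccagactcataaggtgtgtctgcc
Lamb1: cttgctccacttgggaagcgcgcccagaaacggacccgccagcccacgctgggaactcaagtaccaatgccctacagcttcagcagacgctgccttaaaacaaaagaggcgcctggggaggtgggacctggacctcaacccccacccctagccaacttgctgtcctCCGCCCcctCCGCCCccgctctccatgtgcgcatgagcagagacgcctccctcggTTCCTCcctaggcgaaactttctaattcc
Itgam held 2 matches to the PU.1 core and 1 to the SP1 box, Itgb2l held 2 to the PU.1 core, Lamb1 held 1 PU.1 core and 2 SP1 boxes, and Itgax held 1 AP-1 match. Over the 33 entries of the 28 members that matched the table, 15 held the PU.1 core (45.5%), against 23.3% of all 32851 entries. Those with it came from every class, among them Lamb3 (epithelial), Nid1 (stromal) and Itgb1 (broadly expressed). Of the leukocyte and platelet entries, those of Itgam, Itgb2l and Itga2b held it, and those of Itgax, Itga4 and Itgb7 did not. The SP1 box was in 13 of 33 (39.4%) against 32.7% of all, and TGANTCA in 1 of 33 against 6.75% of all. The TATA letters TATAAA were in 0 of 33 entries, against 12.4% of all. A match is a description of letters and does not show a bound factor.

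The comparison asked how the epithelial, stromal and leukocyte members differed between carcinomas labelled Ptpro-KO and WT. The log2 fold change was positive for 17 of 18 stromal and vascular members, 8 of 10 leukocyte and platelet members and 4 of 12 epithelial members. Over all genes tested it was positive for 9408 of 17663. Of the 44 members, 2 passed the test, both higher: Lama1, the laminin alpha1 chain, and Itgb2l, a relative of the leukocyte beta2 subunit. Of these, Itgb2l met the count minimum only through the libraries labelled Ptpro-KO, where it was high. Members called lower numbered 0. That is 2 of 44 higher, where 1.81% of all genes tested were called higher and 2.29% lower, so 4.10% in either direction. The whole-genome split was 320 higher and 405 lower with TMM scaling, and 630 higher and 294 lower with library size as the only scaling. At an unadjusted p under 0.05, 15 members were higher and 2 lower, where 25.0% of all genes lay under that value in either direction. DESeq2 on the same counts called 12 members higher and 1 lower, against 9.52% and 8.32% of all genes.

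By class, the median log2 fold change was 1.45 over the 10 leukocyte and platelet members, 0.60 over the 18 stromal and vascular members, 0.12 over the 4 broadly expressed members and -0.12 over the 12 epithelial members, beside 0.03 over all genes tested. The libraries of the 2 labels did not overlap in 12 members with the Ptpro-KO label higher and 3 with it lower, beside 16.8% and 15.7% of all genes. The 12 higher ones were 8 stromal, 3 leukocyte and 1 broad member, and the 3 lower ones were Itga6, Dst and Itgb5.

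**Figure D1:**
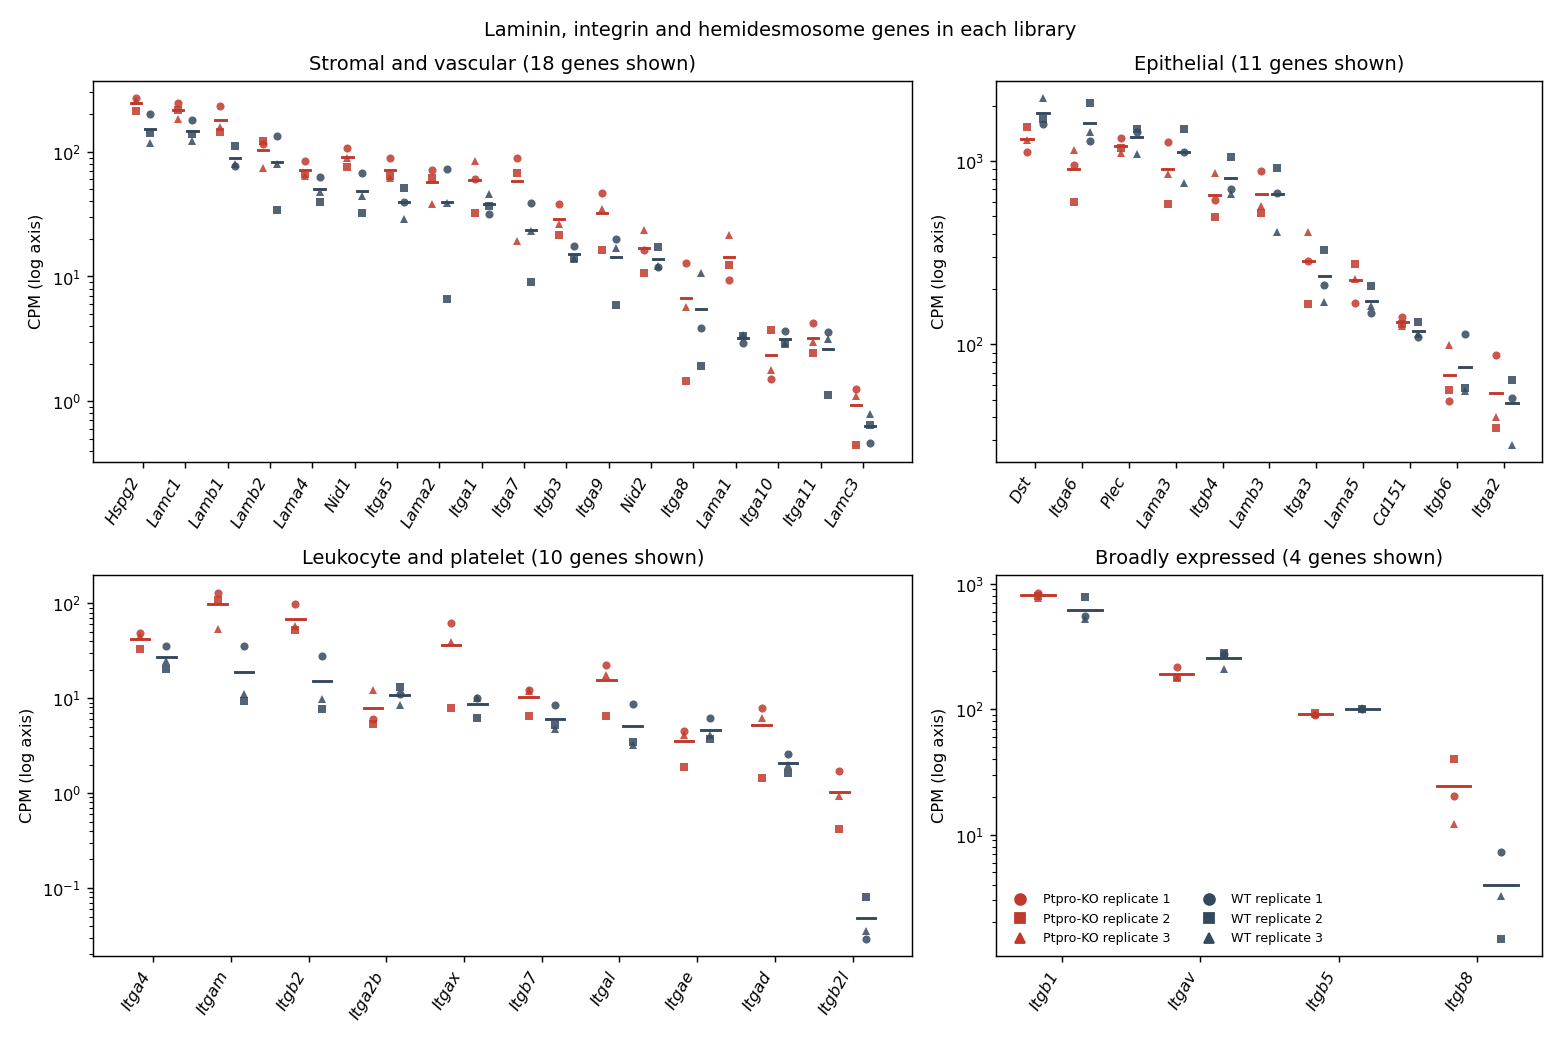
CPM of the members reported in each library on a log axis, by class, with libraries labelled Ptpro-KO beside those labelled WT. Itga6 lies at 599.7 to 1152.6 CPM under the Ptpro-KO label, below the 1290.9 to 2083.0 CPM under the WT label, while Itgam, Itgb2 and Lama1 lie higher under the Ptpro-KO label with no overlap.

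Per transcript length, Itga6 had the highest mean of the members under both labels, at 258.1 ± 75.2 RPKM (reads per transcript length and library size) under Ptpro-KO and 415.0 ± 115.5 RPKM under WT (SD, n = 3 each). Among the integrin beta subunits, Itgb1 came first at 223.5 ± 8.9 RPKM under Ptpro-KO and 156.2 ± 39.9 RPKM under WT, and Itgb4 next at 118.1 ± 32.8 and 133.3 ± 37.4 RPKM under the Ptpro-KO and the WT label. The spreads of Itgb1 and Itgb4 overlapped under WT, but Itgb1 was the higher within each WT library (Itgb4 to Itgb1 ratio 0.8321 to 0.8727). The leukocyte subunit Itgb2 averaged 24.4 ± 8.2 RPKM under Ptpro-KO and 4.86 ± 3.36 RPKM under WT, so at the mean it lay below Itgb5 (31.7 RPKM under each label). Among the 5 laminin alpha chains Lama3 led under both labels, followed by Lama5 at 20.7 ± 5.5 RPKM under Ptpro-KO and 14.5 ± 3.0 RPKM under WT.

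Lama3 and Lamb3 encode chains of laminin-332, the anchoring ligand of the squamous epithelium. Per transcript length, Lamb3 averaged 168.8 ± 45.6 RPKM under Ptpro-KO and 155.3 ± 61.5 RPKM under WT (SD, n = 3 each). Lama3 averaged 90.8 ± 32.7 RPKM under Ptpro-KO and 103.7 ± 36.0 RPKM under WT. For both chains Ptpro-KO replicate 1 was the highest of its label, and replicate 3 the lowest under the WT label.

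In CPM, Lama3 had 1274.4, 581.4 and 847.2 under Ptpro-KO and 1118.9, 1499.7 and 757.4 under WT. The labels overlapped, and the log2 fold change was -0.32 (SE 0.37, adjusted p = 0.635). Lamb3 had 886.1, 523.2 and 567.4 CPM under Ptpro-KO and 665.7, 914.8 and 410.7 CPM under WT, again overlapping (log2 fold change -0.01, SE 0.35, adjusted p = 0.989). These errors leave room for moderate changes either way.

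Itga6, the alpha6 subunit that pairs with beta4 in the hemidesmosome, had 947.1, 599.7 and 1152.6 CPM in libraries labelled Ptpro-KO and 1290.9, 2083.0 and 1441.7 CPM in those labelled WT. All 3 libraries labelled Ptpro-KO lay below all 3 labelled WT, with a log2 fold change of -0.84 (SE 0.31), but the adjusted p was 0.162 in edgeR and 0.0476 in DESeq2. Itgb4, its partner, had 609.7, 492.9 and 861.2 CPM under Ptpro-KO and 702.5, 1053.2 and 663.9 CPM under WT. These overlapped (log2 fold change -0.30, SE 0.28, adjusted p = 0.554). Ptpro-KO replicate 3, the library with stomach markers, was the highest of its label for Itga6 and for Itgb4. Without it the log2 fold changes were -1.055 for Itga6 and -0.550 for Itgb4, and neither passed in edgeR (adjusted p = 0.136 and 0.273). Dst, the dystonin gene, summed over its transcripts, had 1125.9, 1536.5 and 1305.1 CPM under Ptpro-KO and 1584.9, 1699.5 and 2198.9 CPM under WT. Its labels did not overlap, and the difference did not pass (log2 fold change -0.47, SE 0.20, adjusted p = 0.211).

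Dst reads lay mainly on 2 transcripts, one of 23251 and one of 10347 bases. The longer took 71.8%, 55.98% and 63.37% of Dst reads under Ptpro-KO and 64.84%, 49.99% and 51.77% under WT, so the labels overlapped. The sources used here do not say how a read shared by transcripts was assigned, so these shares are as deposited. Nor do they say which transcript encodes the hemidesmosomal form, so the Dst sum cannot be read as that form alone.

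Lama5, the alpha chain of laminin-511 and laminin-521, had 168.7, 276.1 and 226.9 CPM under Ptpro-KO and 148.3, 207.4 and 162.5 CPM under WT (log2 fold change 0.37, SE 0.22, adjusted p = 0.356). Cd151, the tetraspanin that partners laminin-binding integrins, had 140.7, 129.7 and 125.5 CPM under Ptpro-KO and 110.2, 132.4 and 113.9 CPM under WT (log2 fold change 0.15, SE 0.11, adjusted p = 0.451). Both overlapped between the labels. Overlap was also seen for the following epithelial members: log2 fold changes were 0.28 for Itga3 (a laminin-332 receptor subunit), 0.18 for Itga2 (a collagen receptor subunit), -0.15 for Itgb6 (which pairs with alphav) and -0.16 for Plec (plectin). Of the 12 epithelial members 0 passed in edgeR, and 1 had an unadjusted p under 0.05 there, beside 25.0% of all genes. Calls were 0 in limma-voom and 1 in DESeq2 (Itga6, lower), where DESeq2 called 8.32% of all genes lower. The summed basal squamous markers were lower under Ptpro-KO without overlap, as given above, and their part in the epithelial values was not tested.

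Among 7 anchoring and hemidesmosome partners outside the membership, 2 fell and 0 rose, where 2.29% of all genes tested were called lower and 1.81% higher. Their median log2 fold change was -0.97. Krt5, the basal keratin, had 3903.7, 2820.3 and 2996.1 CPM under Ptpro-KO and 6568.5, 8295.2 and 7657.6 CPM under WT (log2 fold change -1.21, SE 0.20, adjusted p = 0.0368). Its pairing keratin Krt14 stood at -1.41 (SE 0.22, adjusted p = 0.035). The other 5 did not pass: the hemidesmosomal collagen Col17a1 had -0.97 (adjusted p = 0.12) and the anchoring fibril collagen Col7a1 -1.05 (adjusted p = 0.0847), both without overlap, Fermt1 had -0.23, Sdc1 -0.12 and Dag1 0.25. Krt5 and Krt14 are also in the basal squamous sum, so the 2 results are not separate. The remaining basal squamous markers, Krt15 and Trp63, were not called in edgeR (adjusted p = 0.261 and 0.144).

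Set against Krt14 within each library, a description chosen after the values were seen, a gene stands higher under the Ptpro-KO label wherever it was lower by less than Krt14, whose own fall was 1 of the 2 calls above. These ratios therefore give only the size of each member's difference relative to that keratin. The log2 difference in the ratio of RPKM was 1.62 for Itga3, 1.43 for Lamb3, 1.25 for Plec, 1.08 for Itgb4, 1.06 for Lama3 and 0.57 for Itga6, each with no overlap between labels. Dst (0.85) and Col17a1 (0.37) overlapped. Between the partners of integrin alpha6 beta4, the Itga6 to Itgb4 ratio was 2.487, 1.936 and 2.131 under Ptpro-KO and 2.853, 3.088 and 3.422 under WT, without overlap.

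**Figure D2:**
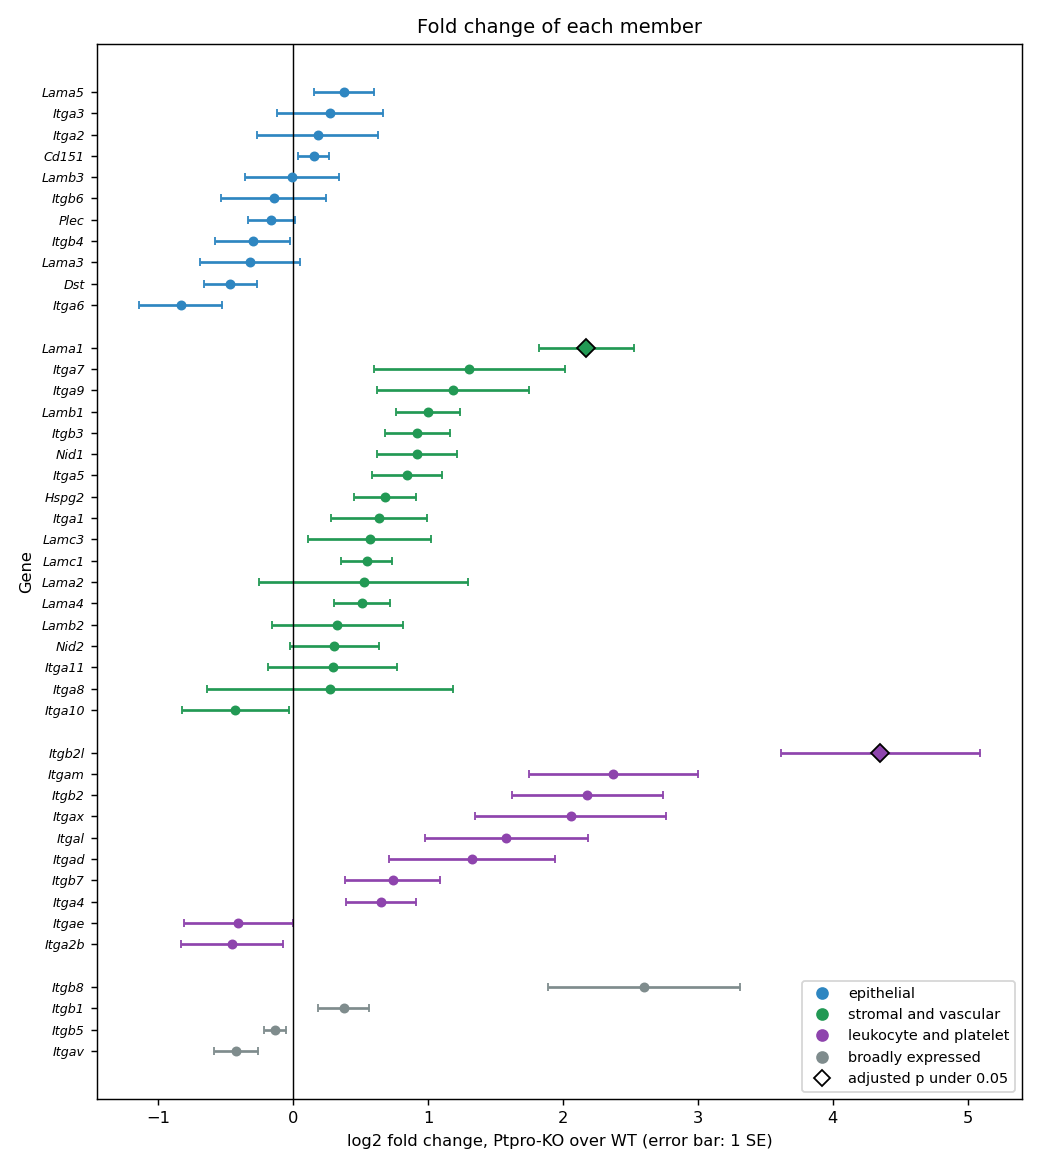
Log2 fold change (the Ptpro-KO label minus the WT label) with its standard error for the members reported, grouped by class. Lama1 at 2.17 and Itgb2l at 4.35 are the 2 that passed, and Itga6 at -0.84 is the lowest.

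The stromal and vascular members were mostly higher under the Ptpro-KO label: 17 of 18 had a positive log2 fold change, 8 did not overlap between labels, and 1 passed. Of all 17663 genes tested, 9408 had a positive log2 fold change, 16.8% lay higher without overlap and 1.81% were called higher. Lama1, the alpha chain of laminin-111, known chiefly from embryonic basement membranes, had 9.299, 12.32 and 21.69 CPM under Ptpro-KO and 2.900, 3.308 and 3.382 CPM under WT. All 3 Ptpro-KO-labelled libraries lay higher, with replicate 3 the highest, and Lama1 rose, its log2 fold change being 2.17 (SE 0.35) at an adjusted p of 0.0357. Replicate 3 is the library with stomach markers, and without it the log2 fold change was 1.75 (adjusted p = 0.0349). Leaving out any 1 of the other 5 libraries gave log2 fold changes of 2.10 to 2.38 with the call lost (adjusted p 0.0603 to 0.156), and 3 of those 5 fits, without Ptpro-KO replicate 2, WT replicate 2 or WT replicate 3, called 0 genes of any kind. The gene spans chr17:67697259-67822647 on the plus strand (GENCODE M21, GRCm38). Lama1 remained scarce per length beside other alpha chains, at 1.597 ± 0.733 RPKM under Ptpro-KO and 0.319 ± 0.034 RPKM under WT.

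Lamb1, the beta chain it pairs with in laminin-111, had 232.0, 144.8 and 159.5 CPM under Ptpro-KO and 77.48, 111.3 and 79.56 CPM under WT. No library overlapped, and the log2 fold change was 1.00 (SE 0.24, adjusted p = 0.0756). Itgb3, the beta subunit of endothelial alphav beta3 and of platelet alphaIIb beta3, had 37.92, 21.56 and 26.49 CPM under Ptpro-KO and 17.46, 14.19 and 13.74 CPM under WT. It did not overlap either (log2 fold change 0.92, SE 0.24, adjusted p = 0.0884). Itga5, the fibronectin receptor subunit, had 89.51, 63.79 and 61.25 CPM under Ptpro-KO and 39.70, 51.29 and 28.66 CPM under WT. Again the labels did not overlap (log2 fold change 0.84, SE 0.26, adjusted p = 0.119).

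The other non-overlapping stromal members were basement membrane components, and none passed: Nid1 (nidogen-1, log2 fold change 0.92, adjusted p = 0.132), Hspg2 (perlecan, 0.68, 0.138), Lamc1 (the gamma1 chain, 0.54, 0.148) and Lama4 (the alpha chain of vessel laminin-411, 0.51, 0.197). DESeq2 called Lama1, Lamb1, Itgb3, Itga5, Nid1 and Hspg2 higher, beside 9.52% of all genes, and limma-voom called 0 of the 18. The remaining 10 overlapped between labels: log2 fold changes were 1.31 for Itga7, 1.18 for Itga9, 0.63 for Itga1, 0.57 for Lamc3, 0.52 for Lama2, 0.33 for Lamb2, 0.31 for Nid2, 0.29 for Itga11, 0.27 for Itga8 and -0.43 for Itga10. Summed fibroblast markers were at 1252.4 to 2041.0 CPM under Ptpro-KO and 198.3 to 898.9 CPM under WT, with 2 of 5 called higher, while summed endothelial markers overlapped at 156.1 to 258.1 and 149.5 to 241.7 CPM. Their part in the stromal values was not tested.

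Itga7, Lama2 and Lamb2 are known from skeletal muscle, where integrin alpha7 binds laminin-211 and laminin-221. Itga7 had 88.59, 67.66 and 19.24 CPM under Ptpro-KO and 38.62, 8.967 and 23.35 CPM under WT. Lama2 had 70.88, 61.28 and 38.16 CPM under Ptpro-KO and 72.93, 6.536 and 38.98 CPM under WT. Lamb2 had 114.5, 122.0 and 74.06 CPM under Ptpro-KO and 133.2, 34.23 and 79.84 CPM under WT. For each of the 3 genes the lowest library of its label was the one low in skeletal muscle markers, Ptpro-KO replicate 3 and WT replicate 2. The same 2 libraries were also the lowest of their label in summed fibroblast markers (1252.4 and 198.3 CPM), and the part of either marker list was not tested. Without those 2 libraries the log2 fold changes were 1.33 for Itga7, 0.24 for Lama2 and 0.15 for Lamb2, none of them passing.

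**Figure D3:**
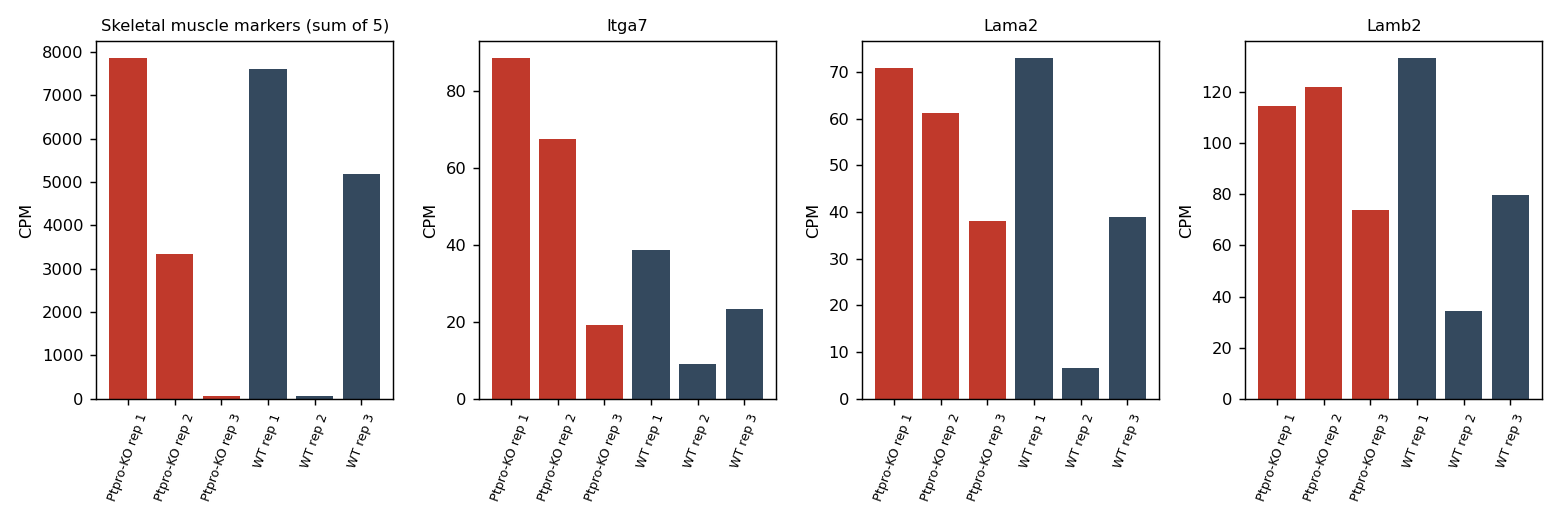
CPM by library of the summed 5 skeletal muscle markers, Itga7, Lama2 and Lamb2, with the libraries labelled Ptpro-KO left of those labelled WT. Ptpro-KO replicate 3 (63.12 CPM of muscle markers) and WT replicate 2 (52.72 CPM) are the lowest of their label in all 4 panels.

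Of 10 matrix ligands outside the membership, 2 rose and 0 fell, where 1.81% of all genes tested were called higher and 2.29% lower. Their median log2 fold change was 0.71. Tnc, tenascin-C, had 1540.7, 1930.2 and 1187.8 CPM under Ptpro-KO and 421.5, 275.4 and 175.5 CPM under WT (log2 fold change 2.42, SE 0.37, adjusted p = 0.0333). Spp1, osteopontin, a ligand of alphav and alpha4 integrins, had 223.0, 94.38 and 151.5 CPM under Ptpro-KO and 5.074, 2.670 and 3.168 CPM under WT (log2 fold change 5.42, SE 0.45, adjusted p = 0.0125). Fn1, fibronectin, the ligand of alpha5 beta1, had 799.1 to 1520.4 CPM under Ptpro-KO and 61.45 to 326.1 CPM under WT without passing (log2 fold change 2.67, SE 0.65, adjusted p = 0.0784). The labels did not overlap for any of these 3.

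The leukocyte and platelet members had the highest class median, and 8 of 10 had a positive log2 fold change, beside 9408 of all 17663 genes. Itgb2, the beta2 subunit shared by the leukocyte integrins, had 97.70, 51.80 and 57.82 CPM in libraries labelled Ptpro-KO and 28.01, 7.691 and 9.896 CPM in those labelled WT. The labels did not overlap, and the difference did not pass (log2 fold change 2.18, SE 0.56, adjusted p = 0.0873). Itgam, the alphaM subunit (CD11b) of myeloid cells, had 129.9, 107.6 and 54.13 CPM under Ptpro-KO and 35.64, 9.325 and 11.18 CPM under WT. It did not overlap either (log2 fold change 2.37, SE 0.63, adjusted p = 0.0917). WT replicate 1 was the highest of its label for both genes, and without it the log2 fold changes were 2.97 for Itgb2 (adjusted p = 0.0529) and 3.24 for Itgam (adjusted p = 0.0576). Itgax, the alphaX subunit (CD11c) of dendritic cells and macrophages, had 62.08, 7.976 and 39.37 CPM under Ptpro-KO and 9.946, 6.257 and 10.04 CPM under WT. Ptpro-KO replicate 2 lay within the WT range there (log2 fold change 2.06, SE 0.71, adjusted p = 0.146).

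Itgb2l, known in the mouse as pactolus and expressed by neutrophils, spans chr16:96422288-96443619 on the minus strand (GENCODE M21, GRCm38) and had 62, 18 and 35 reads under Ptpro-KO and 1, 2 and 1 reads under WT. Every library labelled Ptpro-KO was above every library labelled WT. Only the Ptpro-KO-labelled libraries reached the count minimum, so Itgb2l entered the test through the label where it was high. It rose, the log2 fold change being 4.35 (SE 0.74) at an adjusted p of 0.0404, a fitted value that depends on the prior count at so few reads. The pooled 115 against 4 reads gave a ratio of 21.5 per unit of library size, with an exact 95% interval of 8.18 to 80.3 that covers counting error only. With each library left out in turn the log2 fold change was 3.72 to 4.84 and the call was lost (adjusted p 0.0573 to 0.174), in 3 of these 6 fits along with every other gene's. Neutrophil markers (Ly6g, Csf3r, Cxcr2) summed to 34.79 to 69.0 CPM under Ptpro-KO and 27.02 to 40.16 CPM under WT, overlapping, and Ly6g was at most 0.1107 CPM in any library.

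The other leukocyte and platelet members had smaller fold changes, and all overlapped between labels. Itgal (alphaL, of T cells and other leukocytes) had a log2 fold change of 1.58 (adjusted p = 0.177), Itgad (alphaD) 1.32 (0.252), Itgb7 (the beta7 subunit of gut-homing lymphocytes) 0.74 (0.261), Itga4 (alpha4) 0.65 (0.187), Itgae (alphaE, of intraepithelial T cells) -0.41 and Itga2b (the platelet alphaIIb) -0.45. Itga2b had 6.006, 5.372 and 12.33 CPM under Ptpro-KO and 10.96, 13.11 and 8.401 CPM under WT, overlapping. The platelet markers Pf4, Ppbp and Gp9 summed to 53.63 to 376.4 CPM under Ptpro-KO and 4.699 to 39.32 CPM under WT. Of the 2 markers tested, Pf4 and Ppbp, 0 were called. Most of the sum was Ppbp, at 44.38 to 363.1 CPM under Ptpro-KO and 2.599 to 32.45 CPM under WT. Gp9 was near the floor and overlapped, with 1, 0 and 9 reads under Ptpro-KO and 2, 3 and 1 under WT. Itgam, Itgax and Itgad are neighbours on chr7, 11.1 kb and 3.72 kb apart, and lie on the same strand.

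The pan-leukocyte gene Ptprc had 118.3, 43.54 and 86.1 CPM under Ptpro-KO and 60.6, 20.8 and 25.88 CPM under WT, overlapping. Macrophage markers summed to 311.6 to 634.5 CPM under Ptpro-KO and 45.39 to 169.1 CPM under WT, with 0 of the 3 tested markers called. A further macrophage marker, Adgre1, had no entry under that symbol, so its level is not known here. T cell markers summed to 5.982 to 8.908 CPM under Ptpro-KO and 4.942 to 8.612 CPM under WT. Their part in the leukocyte integrin values was not tested. For these 10 members edgeR called 1 and limma-voom 1, Itgb2l in both, where edgeR called 1.81% of all genes higher. Itgb2l entered both tests only through the label where it was high, so its call says nothing about the class. DESeq2 called 5 higher (Itgb2l, Itgb2, Itgam, Itgax and Itgal), beside 9.52% of all genes.

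The broadly expressed members gave no call in edgeR or limma-voom, and 2 of 4 had an unadjusted p under 0.05 in edgeR, beside 25.0% of all genes. DESeq2 called 1 (Itgb8, higher), beside 9.52% of all genes. Itgb8, which with alphav activates latent TGF-beta, had 20.51, 40.21 and 12.20 CPM under Ptpro-KO and 7.249, 1.475 and 3.239 CPM under WT. The labels did not overlap, and Ptpro-KO replicate 2 was the highest (log2 fold change 2.60, SE 0.71, adjusted p = 0.0974). Without WT replicate 1, the highest of its label, the log2 fold change was 3.36 (adjusted p = 0.0926). Itgb1, the common beta1 subunit, had 850.4, 799.3 and 766.6 CPM under Ptpro-KO and 553.9, 788.8 and 522.3 CPM under WT, with 1 library overlapping (log2 fold change 0.37, SE 0.19, adjusted p = 0.286). Itgav, the alphav subunit that pairs with beta1, beta3, beta5, beta6 and beta8, had 218.1, 179.0 and 177.4 CPM under Ptpro-KO and 276.8, 282.4 and 210.3 CPM under WT, overlapping (log2 fold change -0.42, SE 0.16, adjusted p = 0.181). Itgb5 was narrow within each label, at 89.75, 93.39 and 91.90 CPM under Ptpro-KO and 99.60, 99.59 and 102.8 CPM under WT. Its groups did not overlap, and its log2 fold change of -0.13, with an SE of 0.08 and an adjusted p of 0.351, turned positive at 0.02 with library size as the only scaling.

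Of 21 integrin adaptors, 2 rose and 0 fell, where 1.81% of all genes tested were called higher and 2.29% lower. Their median log2 fold change was 0.31. Parva (alpha-parvin) had 105.4, 99.61 and 116.1 CPM under Ptpro-KO and 65.10, 66.43 and 67.06 CPM under WT (log2 fold change 0.69, SE 0.09, adjusted p = 0.0274). Ilk, integrin-linked kinase and its complex partner, had 75.36, 66.02 and 61.22 CPM under Ptpro-KO and 41.44, 37.46 and 41.68 CPM under WT (log2 fold change 0.75, SE 0.11, adjusted p = 0.033). The labels did not overlap for either gene. The haematopoietic members Fermt3 (kindlin-3) and Parvg (gamma-parvin) had log2 fold changes of 0.69 (adjusted p = 0.123) and 1.86 (adjusted p = 0.0922), and the third subunit of the complex, Lims1, had 0.13.

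Ratios within a library set the epithelial and leukocyte beta subunits and the common beta1 subunit against each other without a scaling between libraries. The Itgb4 to Itgb1 ratio of RPKM was 0.4594, 0.4105 and 0.7285 under Ptpro-KO and 0.8453, 0.8727 and 0.8321 under WT, so all 3 libraries labelled Ptpro-KO were lower (log2 difference -0.72). The Itgb2 to Itgb1 ratio was 0.147, 0.08235 and 0.09683 under Ptpro-KO and 0.06489, 0.01298 and 0.02444 under WT, all 3 higher (log2 difference 1.94). An exact two-sided permutation test gave p = 0.1 for each of these 2 ratios, and 0.1 is the smallest p that 3 against 3 allows.

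**Figure D4:**
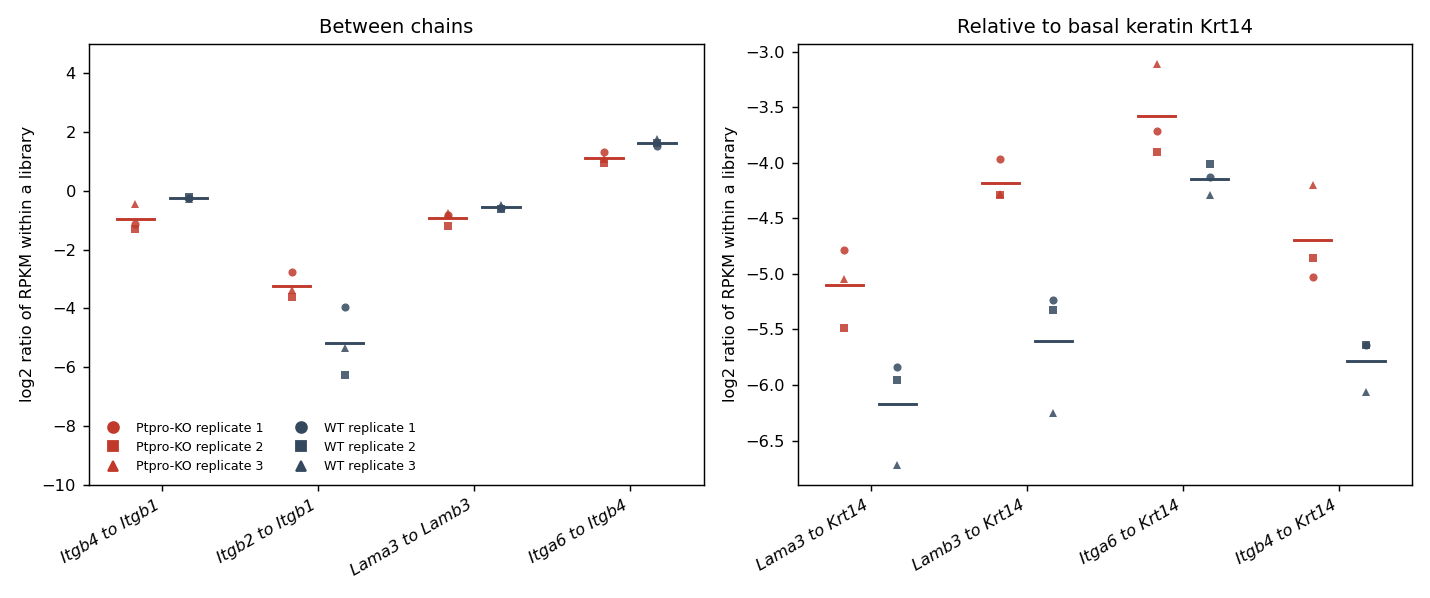
Log2 ratio of summed transcript RPKM within each library, between chains (left) and relative to Krt14 (right), with libraries labelled Ptpro-KO (points, and bars for means) left of those labelled WT. The Itgb4 to Itgb1 points lie lower and the Itgb2 to Itgb1 points higher under Ptpro-KO with no overlap, and the 4 ratios to Krt14, itself lower under Ptpro-KO, lie higher.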

How the data were processed

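Total RNA of 6 mouse oesophageal carcinomas was sequenced on an Illumina instrument, per the design text. Alignment was to mm10 with Bowtie 0.12.2, according to the submitters' processing notes. Each library's deposited file gives whole read counts per Ensembl transcript beside an RPKM column, which equals the count per transcript length and library total in the deposited values. FPKM values per gene come from a further table by the authors, made with a tool the sources used here do not name; 2 of its columns match no sample and were not used. Nor do they say whether strand was kept, or how reads shared by isoforms or overlapping genes were assigned.

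Counts were summed per symbol. Genes with at least 10 counts, scaled, in 3 libraries and 15 in total (filterByExpr) were kept, which left 17663. TMM scaling and edgeR's quasi-likelihood test (edgeR 4.0.16, R 4.3.3) compared the Ptpro-KO label with the WT label. P-values were Benjamini-Hochberg adjusted over all genes tested, with a threshold of 0.05. The common biological coefficient of variation came to 0.398. Alternatives were DESeq2 1.42.0, limma 3.58.1 (voom on counts, or FPKM on a log2 scale with 1 or 0.1 added), different scalings or count minimums, a replicate block, a term for sex read from Xist and Y-linked transcripts, and each library left out. By those transcripts 1 library labelled WT and 2 labelled Ptpro-KO were female, so sex was not balanced between the labels. CPM use TMM library sizes. Ratios are of summed transcript RPKM within a library, with exact permutation tests over samples. In simulated counts with the same design, the test called 3 of 98 genes that had been altered 2-fold, 35 of 100 altered 4-fold, and 4 of 17217 left unaltered. Few genes were altered there, whereas in the data 25.0% of genes had an unadjusted p under 0.05. The adjusted threshold was therefore stricter in the simulation, and its call rates may be too low for these data. Within a label, libraries differed beyond sampling noise (chi-square over degrees of freedom of 66.9 to 307), so none was counted as a duplicate.

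Positions come from GENCODE M21 (GRCm38, the assembly of mm10), and classes from textbook expression. Of the members 1 is counted in the totals and not reported here by its own values. Every other member is named, and full statistics are given for called members, the 4 with the smallest p in each class, and Lama3, Lamb3, Itga6 and Itgb4. The members, classes and lists were chosen with earlier results of these data known.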

Additional observations from a re-analysis of the deposited data

How the results depend on the processing

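Calls among the members depended on the test and on single libraries. Against 2 members called higher, DESeq2 called 12, limma-voom 1 (Itgb2l), a minimum of 50 counts 1 (which removes Itgb2l), limma on log2(FPKM + 1) and on log2(FPKM + 0.1) 0 each, a term for sex 0, and leaving out 1 library 0 to 1. DESeq2 called 1 member lower, and each other alternative 0. Other edgeR scalings and no filter gave 2 or 3. Without the 2 libraries lowest in skeletal muscle markers, a choice made after seeing the data, 0 members were called, as were 0 genes in all. With 0 calls, the members at an unadjusted p under 0.05 numbered 15, 14, 17 and 12 in the FPKM + 1, FPKM + 0.1, sex and muscle-marker fits. The loss of calls spanned all genes: 0 were called without Ptpro-KO replicate 2, WT replicate 2 or WT replicate 3, and the sex term called 64 higher and 122 lower, against 320 and 405. Over all alternatives the adjusted p ran from 4.98e-07 to 0.156 for Lama1 and from 0.000772 to 0.193 for Itgb2l.

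The replicate block called 1 member, Itgb2. Same-numbered libraries deviated together only for number 1 (correlations 0.539, 0.0803 and -0.243), so a pairing by number was not shown for the others. The codes of both libraries numbered 1 start with LB and those of the others with B. The sources used here do not say what the codes mean.

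Both ratios kept their direction with FPKM, with uncorrected counts, without single libraries and with the block. Without single libraries they ranged from -0.97 to -0.56 (Itgb4 to Itgb1) and from 1.40 to 2.57 (Itgb2 to Itgb1), and the replicate block left them at -0.72 and 1.94.

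Each reversed log2 fold change was of a member that passed in no fit, and the cause was not tested. Library-size scaling moved the median of all genes from 0.034 to 0.185 and gave 0.016 for Itgb5, 0.024 for Itgb6 and 0.127 for Lamb3. Lamb3 was 0.025 in limma-voom, 0.009 with the minimum of 50 counts and 0.030 with the replicate block. The sex term gave -0.040 for Itga2 and -0.412 for Itga8. Without the 2 muscle-poor libraries Itga11 was -0.015, Itga8 -0.030 and Lamb3 0.386. Leaving out 1 library at a time gave -0.076 to 0.586 for Itga11, -0.381 to 0.440 for Itga2, -0.081 to 0.579 for Itga3, -0.654 to 1.189 for Itga8, -0.520 to 0.263 for Itgb6, -0.049 to 0.853 for Lamb2, -0.317 to 0.285 for Lamb3 and -0.020 to 0.537 for Nid2.

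Precision was limited by 3 libraries a label: changes of 2-fold were seldom called in simulation.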
